A study of Homo sapiens with 8 samples.

Results

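The mRNA of 10 genes of a breast cancer lung metastasis signature was followed in LM2 cells, namely ANGPTL4, FSCN1, ID1, MMP1, PTGS2, TNC, LY6E, MAN1A1, KYNU and VCAM1. They were found by gene symbol among 58688 gene rows, and all 10 had enough counts to be tested. LM2 cells were derived from the triple negative human breast cancer line MDA-MB-231 and colonize the lung. Cells were treated with the vehicle DMSO or with 1 µM Ponatinib, an inhibitor of ABL and other tyrosine kinases, for 6 h, and each of these groups has 2 libraries. In a second set, cells were exposed for 48 h to lentivirus with Polybrene at 8 µg/mL, carrying scrambled shRNA, ABL1 shRNA, ABL2 shRNA or both, and each of these groups is 1 library from 1 stable line. Infected cells were selected with puromycin, and a single hairpin served for each ABL gene. The question was how far lowering the ABL kinases moved the signature genes in the way that Ponatinib did.

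A lung metastasis signature is a set of genes whose mRNA level separates breast cancer cells that colonize the lung from those that do not. Its products act at several points. ID1 is a helix-loop-helix protein without a DNA-binding region that holds other transcription factors away from DNA, and it is a classical target of bone morphogenetic protein (BMP) and SMAD signaling. FSCN1 (fascin) bundles actin filaments in filopodia, and VCAM1 is a surface adhesion molecule that binds an integrin of leukocytes. MMP1 is an interstitial collagenase, TNC (tenascin C) is a matrix glycoprotein, and ANGPTL4 is a secreted inhibitor of lipoprotein lipase. PTGS2 (cyclooxygenase 2) makes the precursor of the prostaglandins. MAN1A1 trims mannose from N-glycans in the Golgi, KYNU (kynureninase) cleaves kynurenine in the breakdown of tryptophan, and LY6E is a lipid-anchored surface protein.

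The total count on genes was 7568934 in the shallowest library, Ponatinib replicate 2, and 13010896 in the deepest, ABL1 shRNA, so that 3 counts correspond to 0.3964 and 0.2306 CPM (counts rescaled so that every library has the same total). The line markers VIM, CD44, EGFR, KRT18, CAV1 and AXL were present in every library, PGR had no counts, and ESR1 and CDH1 stayed at or below 0.885 and 1.78 normalized CPM. ERBB2 and EPCAM, which were listed as low or absent too, were detected in every library, at 53.7 to 67.03 and at 5.02 to 11.9. Markers of other cells were mostly absent. The summed level of the 3 leukocyte markers was at most 0.651 in any library. The fibroblast markers PDGFRB, DCN and COL1A1 summed to between 64.7 and 65.8 with DMSO, between 81.3 and 89.3 with Ponatinib and between 106 and 415 in the shRNA set. PDGFRB and COL1A1 rose with Ponatinib, DCN was at 0.352 or less everywhere, and their part in the results below was not tested. The endothelial markers PECAM1, CDH5 and VWF summed to at most 4.35 with DMSO or Ponatinib and to between 21.7 and 40.3 in the shRNA set. In addition, 68 gene rows with 100 counts or more in all 4 libraries of the first set had 0 counts throughout the second. Treatments were therefore compared with the control of their own set. Levels of the 2 sets, which were normalized separately, are set side by side only as values. The file headers of the libraries labelled scrambled and ABL1 shRNA carry swapped names, but the labels were kept, and the targeted genes follow them. ABL1 was at 190.0 normalized CPM with scrambled shRNA, 72.9 under the ABL1 hairpin, 202.9 under the ABL2 hairpin and 109.4 with both. ABL2 was at 236.4, 212.9, 93.7 and 147.8 in the same order.

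The promoters of the members whose level differed most are shown first, because these are the stretches on which a factor that acts near the start site would bind. They run from 250 bases before to 50 bases after the gene's start in the RefSeq promoter table (GRCh38.p14). Of the 10 genes, 7 were searched (ANGPTL4, ID1, KYNU, MAN1A1, PTGS2, TNC and VCAM1). The promoters of the other members were not searched, so the counts below hold for these 7 only. VCAM1, PTGS2 and ANGPTL4 are the 3 genes past 2-fold with Ponatinib, and ID1 is the gene past 2-fold in all 3 knockdowns. The windows are chr1:100719492-100719791 (plus strand) for VCAM1, chr1:186680374-186680673 (minus strand) for PTGS2, chr19:8363905-8364204 (plus strand) for ANGPTL4 and chr20:31605039-31605338 (plus strand) for ID1, each printed on the gene's own strand. Capitals mark TATAAA and, in VCAM1, the letters GGGNTTNCCC of a kappa B site, the motif bound by NF-kB.
VCAM1: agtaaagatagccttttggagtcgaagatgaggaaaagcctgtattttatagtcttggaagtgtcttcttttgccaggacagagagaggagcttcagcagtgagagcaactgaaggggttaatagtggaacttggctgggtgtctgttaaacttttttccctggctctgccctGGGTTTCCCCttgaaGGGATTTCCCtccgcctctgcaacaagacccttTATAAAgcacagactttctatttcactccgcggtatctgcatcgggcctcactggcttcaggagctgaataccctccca
PTGS2: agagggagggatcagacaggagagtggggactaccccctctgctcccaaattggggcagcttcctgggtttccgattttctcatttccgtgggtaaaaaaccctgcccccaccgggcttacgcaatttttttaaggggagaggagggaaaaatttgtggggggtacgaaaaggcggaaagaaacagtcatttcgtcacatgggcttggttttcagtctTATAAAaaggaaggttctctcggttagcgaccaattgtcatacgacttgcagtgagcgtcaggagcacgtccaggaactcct
ANGPTL4: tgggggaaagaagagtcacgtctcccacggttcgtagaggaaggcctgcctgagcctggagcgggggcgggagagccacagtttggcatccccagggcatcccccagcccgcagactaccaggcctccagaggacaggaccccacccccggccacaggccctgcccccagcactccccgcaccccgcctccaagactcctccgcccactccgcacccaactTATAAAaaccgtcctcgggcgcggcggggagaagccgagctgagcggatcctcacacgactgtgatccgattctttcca
ID1: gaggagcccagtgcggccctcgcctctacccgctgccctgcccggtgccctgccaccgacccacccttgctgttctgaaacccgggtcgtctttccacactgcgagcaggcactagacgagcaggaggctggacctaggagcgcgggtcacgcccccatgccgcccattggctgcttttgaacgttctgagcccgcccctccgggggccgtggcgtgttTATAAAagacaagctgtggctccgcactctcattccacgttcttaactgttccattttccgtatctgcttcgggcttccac

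The letters TATAAA on the gene's strand were in 5 of the 7 promoters, against 7.33% of 35116 promoters in the table. In 4 of the 7 they began between 40 and 20 bases before the start, which holds for 2.3% of all promoters. They began 29 bases before the start in ANGPTL4 and VCAM1, 31 in ID1 and 32 in PTGS2, and 66 in KYNU. The kappa B letters, searched on both strands after the VCAM1 promoter had been read, occurred at 77 to 68 and at 62 to 53 bases before its start and in none of the other 6, against 1.68% of promoters with 1 match or more and 0.094% with at least 2. The AP-1 letters TGANTCA, the motif of JUN and FOS dimers, and the CRE letters TGACGTCA, searched on both strands, were in 0 of the 7 and in 7.71% and 1.85% of all promoters. No marked motif overlapped another. A match is a description of the letters, and its absence says only that they are not in this window. GC content ran from 42.3% in KYNU to 77.3% in MAN1A1, around a median of 58.7% over all promoters. The map of motif matches shows where they fall.

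**Figure D1:**
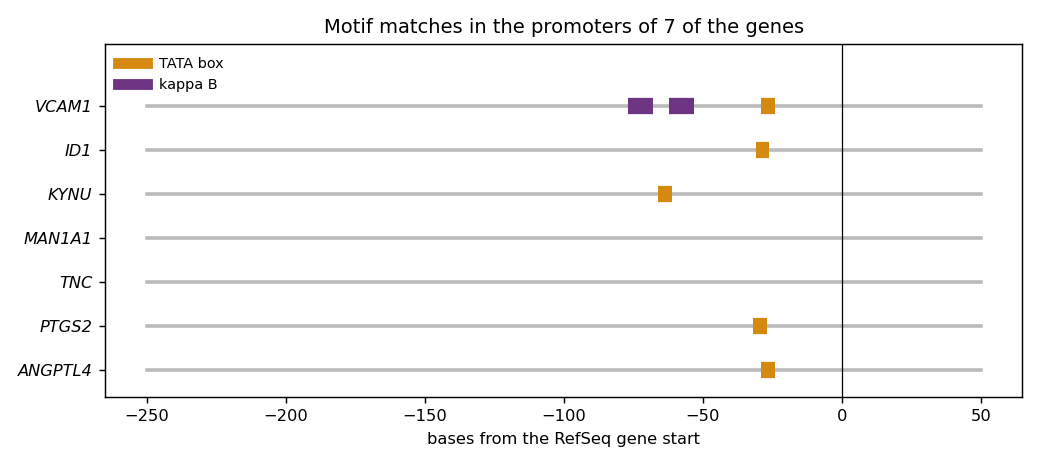
Each line is the promoter of a gene, from 250 bases before to 50 bases after its start (x axis, bases from the RefSeq start), with matches to TATAAA (orange) and to the kappa B letters (purple). TATAAA matches of VCAM1, ID1, PTGS2 and ANGPTL4 line up between 32 and 29 bases before the start, KYNU has its match at 66, and VCAM1 alone has the kappa B pair.

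Levels of the genes were compared with each other per kilobase of their main annotated transcript. With DMSO, ID1 had the highest level, at 103.6 ± 3.40 normalized CPM per kilobase (SD, n = 2 here and below). MMP1 (67.8 ± 2.15) and FSCN1 (65.5 ± 1.57) came next, and their libraries overlapped. LY6E was at 27.2 ± 3.30 and TNC at 13.4 ± 0.235. PTGS2 (5.04 ± 0.494) and ANGPTL4 (4.76 ± 0.689) overlapped again, followed by MAN1A1 (3.84 ± 0.234), KYNU (2.91 ± 0.140) and VCAM1 (1.36 ± 0.0646). The value of KYNU rests on an annotated transcript of 15151 bases. With Ponatinib the order of the upper 5 genes stayed ID1, MMP1, FSCN1, LY6E and TNC. Below them MAN1A1 (6.11 ± 0.634), VCAM1 (4.42 ± 0.606) and KYNU (4.15 ± 0.270) stood above PTGS2 (1.51 ± 0.133) and ANGPTL4 (0.789 ± 0.0338). All further levels are normalized CPM per gene, without length.

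**Figure D2:**
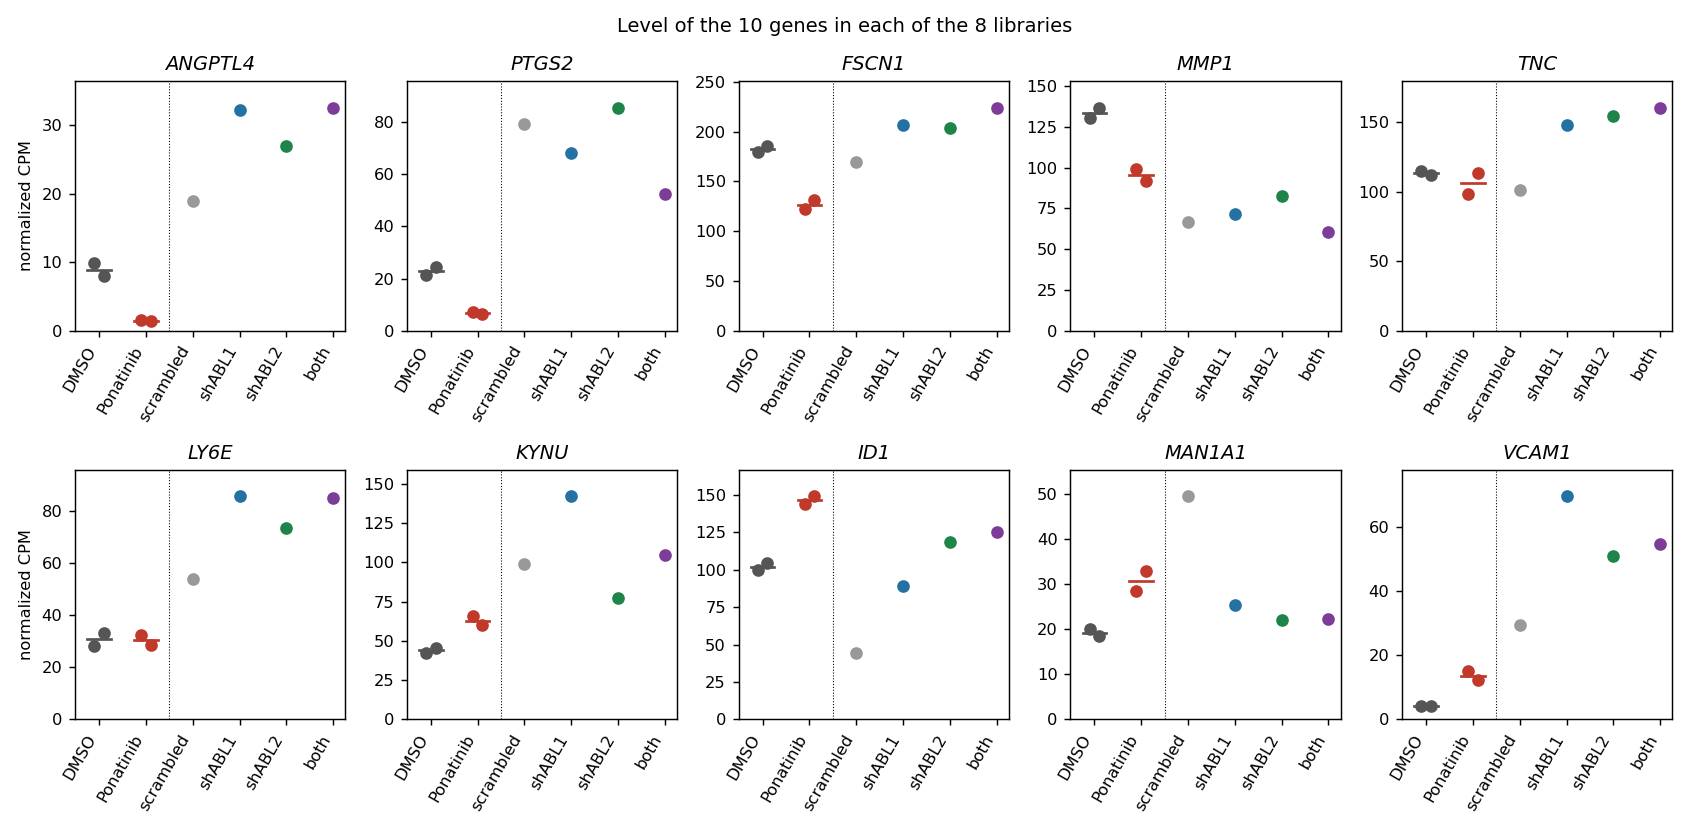
Normalized CPM (y axis, linear, from 0) of each of the 10 genes in the 8 libraries, 1 point per library, with a bar at the mean of the DMSO and of the Ponatinib pair and a dotted line between the 2 sets. VCAM1 lies between 4.07 and 4.35 with DMSO and between 12.4 and 15.02 with Ponatinib, and ID1 is lowest with scrambled shRNA at 44.2.

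Ponatinib moved the signature in both directions. Of the 10 genes, 4 fell (ANGPTL4, PTGS2, FSCN1 and MMP1), 4 rose (VCAM1, MAN1A1, KYNU and ID1), and 2 did not pass the test (TNC and LY6E). "Fell" and "rose" mean that the adjusted p of edgeR's quasi-likelihood test was below 0.05 over 16031 genes, of which 15.7% were called lower, 15% higher and 30.7% in either direction. The members' median log2 fold change was -0.054, against -0.0047 over all genes tested. By the cut-offs of the study (more than 2-fold, with P below 0.05 before adjustment), 3 members passed (ANGPTL4, PTGS2 and VCAM1), against 5.48% of all genes. In bulk RNA, a change in every cell and a change in the share of cells that carry an mRNA cannot be told apart.

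VCAM1, on chromosome 1 from 100719742 to 100739045 of hg38, had the largest rise. It was at 4.07 and 4.35 in the DMSO libraries and at 15.02 and 12.4 in the Ponatinib libraries, from 46, 43, 158 and 95 counts. Both Ponatinib libraries lay far above both DMSO libraries. The log2 fold change was 1.71 (standard error 0.181, 95% interval 1.33 to 2.10, edgeR adjusted p = 4.1e-06), a 3.28-fold rise. It stood at percentile 99.3 of the genes tested.

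Leukocyte adhesion genes that work beside VCAM1 were called in both directions. Of 14 listed, 7 were tested, 1 rose and 4 fell, and their median log2 fold change was -0.31. Over all genes tested, 15% were called higher and 15.7% lower. This list was chosen with earlier results of these data known, so its count is a description only. ICAM5, a neuronal adhesion molecule, rose from 3.10 and 1.82 to 4.75 and 5.60 (log2 fold change 1.03, edgeR adjusted p = 0.0094). ICAM1, an endothelial and epithelial ligand of leukocyte integrins that was looked up after its values had been seen, fell from 14.6 and 16.6 to 10.2 and 10.0 (-0.62, edgeR adjusted p = 0.0040). Thus VCAM1 and ICAM1 moved in opposite directions. ICAM2 and the membrane linkers EZR and MSN were the other members that fell. ITGA4, the alpha chain of the VCAM1 receptor, was at 0.159 or less in every library, while its beta chain ITGB1 was between 1011 and 1641.

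ID1, on chromosome 20 from 31605283 to 31606515, was at 99.5 and 104 with DMSO and at 144 and 149 with Ponatinib. The groups did not overlap, and the gap between them was far larger than the spread within either pair. Its log2 fold change was 0.52 (standard error 0.065, 95% interval 0.384 to 0.661, edgeR adjusted p = 2.2e-05), a 1.44-fold rise.

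ID1 did not rise alone. Of 21 listed genes of the ID family and BMP signaling, 17 were tested, 9 rose, 1 fell and 7 did not pass, and their median log2 fold change was 0.35. Over all genes tested, 15% were called higher and 15.7% lower. The list was chosen with earlier results of these data known, so its count is a description only. The other ID genes all rose. ID2 went from 1.15 and 1.11 to 5.51 and 4.43 (log2 fold change 2.14, edgeR adjusted p = 5.6e-05), and ID4 from 6.46 and 5.98 to 22.6 and 26.7 (1.97, edgeR adjusted p = 1.3e-07). ID3 rose less, from 19.4 and 23.1 to 37.7 and 34.1 (0.77, edgeR adjusted p = 8.8e-05). ID1 thus had the smallest rise of the 4 ID genes, and in none of them did the pairs overlap.

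The transcription factor ATOH8 had the largest change of that list, from 1.68 and 2.23 to 20.6 and 20.8 (log2 fold change 3.41, standard error 0.188, edgeR adjusted p = 4.1e-09). SMAD9, a BMP-responsive SMAD, went from 2.48 and 3.75 to 6.08 and 7.55 (1.13, edgeR adjusted p = 0.0026). Among the genes under 2-fold, the feedback inhibitors BAMBI and SMAD6 and the receptors BMPR1A and ACVR1 rose, with log2 fold changes of 0.79, 0.48, 0.48 and 0.35. NOG, a secreted BMP antagonist, was the gene that fell, from 22.3 and 23.3 to 14.6 and 15.5 (-0.61, edgeR adjusted p = 0.0012). The ligands BMP2 and BMP4 did not pass, at -0.64 and 0.14. The plot of ID and BMP genes shows that the called genes lie almost all to the right of 0.

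**Figure D3:**
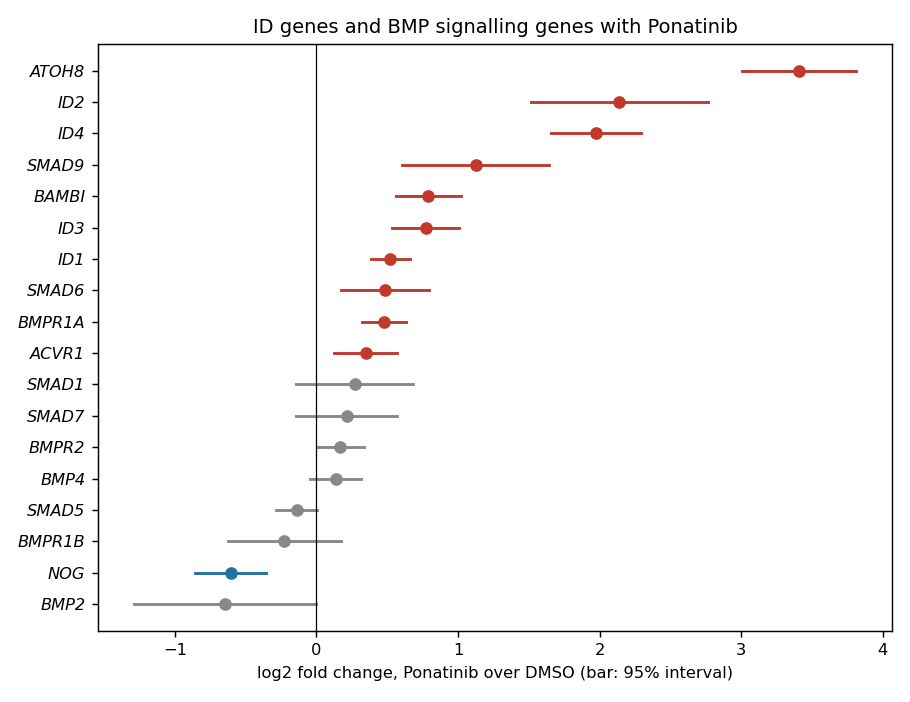
Log2 fold change with Ponatinib (x axis) of ID1 and the 17 tested genes of the ID and BMP list, with 95% intervals of the edgeR fit, red where the gene rose, blue where it fell and gray where it did not pass the test. ATOH8, ID2 and ID4 lie at 3.41, 2.14 and 1.97, ID1 at 0.52 and NOG at -0.61.

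MAN1A1, on chromosome 6 from 119177205 to 119349761, was at 20.1 and 18.4 with DMSO and at 28.4 and 32.9 with Ponatinib. Both Ponatinib libraries were above both DMSO libraries, and they differed from each other by 0.21 on the log2 scale. The log2 fold change was 0.66 (standard error 0.113, 95% interval 0.417 to 0.89995, edgeR adjusted p = 0.00042). Among 12 tested genes of N-glycan trimming and branching, 3 rose, 3 fell and the median log2 fold change was 0.0099. The shares over all genes tested were 15% higher and 15.7% lower. The branching enzyme MGAT4A rose from 1.86 and 1.92 to 4.28 and 3.64 (1.08, edgeR adjusted p = 0.0070). MAN1A2, a paralog with the same Golgi activity as MAN1A1, was at 81.4 and 78.4 with DMSO and at 77.4 and 93.8 with Ponatinib, and did not pass (0.089, edgeR adjusted p = 0.46). It was named after its values had been seen.

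KYNU, on chromosome 2 from 142877657 to 143055833, was at 42.6 and 45.6 with DMSO and at 65.8 and 60 with Ponatinib, so that the pairs were well apart. It rose with a log2 fold change of 0.52 (standard error 0.082, 95% interval 0.345 to 0.695, edgeR adjusted p = 2.0e-04). Of 12 other genes of the kynurenine pathway, 5 had enough counts and 1 rose, beside 15% of all genes. It was the amino acid transporter SLC7A5, whose log2 fold change was 0.88. The enzymes that start the pathway, IDO1 and TDO2, were at 0.528 and 0.463 or less in every library, and KMO, which acts beside KYNU on kynurenine, was at 0.44 or less. These 3 enzymes were thus near the level of 3 counts, where no change can be read.

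FSCN1, on chromosome 7 from 5592816 to 5606655, was at 179 and 185 with DMSO and at 122 and 132 with Ponatinib. No Ponatinib library reached a DMSO library, and the fall was of 30.6% (log2 fold change -0.53, standard error 0.066, 95% interval -0.668 to -0.388, edgeR adjusted p = 2.2e-05). The actin bundling and filopodia genes leaned the same way. Of 12 tested, 6 fell, 1 rose and 5 did not pass, with a median log2 fold change of -0.21. Over all genes, 15.7% were called lower, and this list too was chosen with earlier results of these data known. MYO10, the myosin that carries cargo to filopodia tips, fell from 207.0 and 207.3 to 96.5 and 107 (-1.03, standard error 0.068, edgeR adjusted p = 2.6e-08). The alpha-actinins ACTN1 and ACTN4, VASP, PLS1 and LCP1 were the other genes that fell, and ENAH was the 1 that rose, at 0.35.

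ANGPTL4 (chr19:8363289-8374370) and PTGS2 (chr1:186671791-186680922) had the largest falls. ANGPTL4 was at 9.82 and 8.00 with DMSO and at 1.52 and 1.43 with Ponatinib, from 111, 79, 16 and 11 counts (log2 fold change -2.58, standard error 0.252, edgeR adjusted p = 1.9e-06). It stood at percentile 0.0873 of the genes tested. PTGS2 was at 21.2 and 24.3 with DMSO and at 7.23 and 6.38 with Ponatinib (-1.72, standard error 0.149, edgeR adjusted p = 5.1e-07) and stood at percentile 0.412. The pairs of both genes were far apart.

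The lists around these 2 genes held calls in both directions, beside 15% of all genes called higher and 15.7% called lower. Their counts are small and are a description only. Of 9 tested genes of the angiopoietin-like and PPAR list, 1 rose and 1 fell. PDK4, a mitochondrial kinase and PPAR target like ANGPTL4, rose from 2.74 and 1.62 to 4.66 and 7.16 (log2 fold change 1.37, edgeR adjusted p = 0.0026), and the nuclear receptor PPARG fell by 0.55 on the log2 scale. Of 9 tested genes of prostaglandin synthesis and response, 3 rose and 3 fell. PTGER4, a receptor for prostaglandin E2, fell from 12.3 and 11.95 to 5.32 and 5.86 (-1.13, edgeR adjusted p = 0.00012). PTGER3, another such receptor, had 4 and 2 counts with DMSO and 14 and 11 with Ponatinib. It passed the test (edgeR adjusted p = 0.0049), but its DMSO level is at the floor of 3 counts, and the size of its rise is not given. PTGES, the synthase that acts after PTGS2, rose with a log2 fold change of 0.39.

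MMP1 (chr11:102789401-102798160) was at 131 and 137 with DMSO and at 99.3 and 91.8 with Ponatinib (log2 fold change -0.48, standard error 0.068, edgeR adjusted p = 8.0e-05). Of the 6 tested genes of the collagenase and TIMP list, 3 fell and 1 rose, and none passed 2-fold. Those that fell were MMP14, TIMP1 and TIMP3, and TIMP4 rose. TNC (chr9:115019575-115118207) was at 115 and 112 with DMSO and at 98.7 and 114 with Ponatinib, so that the groups overlapped (-0.11, 95% interval -0.265 to 0.0525, edgeR adjusted p = 0.31). LY6E (chr8:143017982-143023832) was at 28.1 and 33.4 with DMSO and at 32.3 and 28.6 with Ponatinib (-0.00095, 95% interval -0.235 to 0.233, edgeR adjusted p = 0.997), and its pairs overlapped fully. Of 8 tested tenascin partners, 3 fell and 1 rose. Of 6 tested relatives of LY6E, 3 fell, among them the urokinase receptor PLAUR, from 126 and 129 to 33.9 and 29.2 (-2.0032, edgeR adjusted p = 1.2e-10). Of 12 tested genes of other lung metastasis sets, 3 rose and 3 fell, and the chemokine CXCL1 fell from 10.6 and 9.42 to 2.95 and 3.51 (-1.65, edgeR adjusted p = 2.1e-05). Over all 11 lists, 24 of 103 tested genes rose and 30 fell, beside 15% and 15.7% of all genes. By the cut-offs of the study (2-fold and P below 0.05 before adjustment), 12 of the 103 passed, beside 5.48% of all genes.

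**Figure D4:**
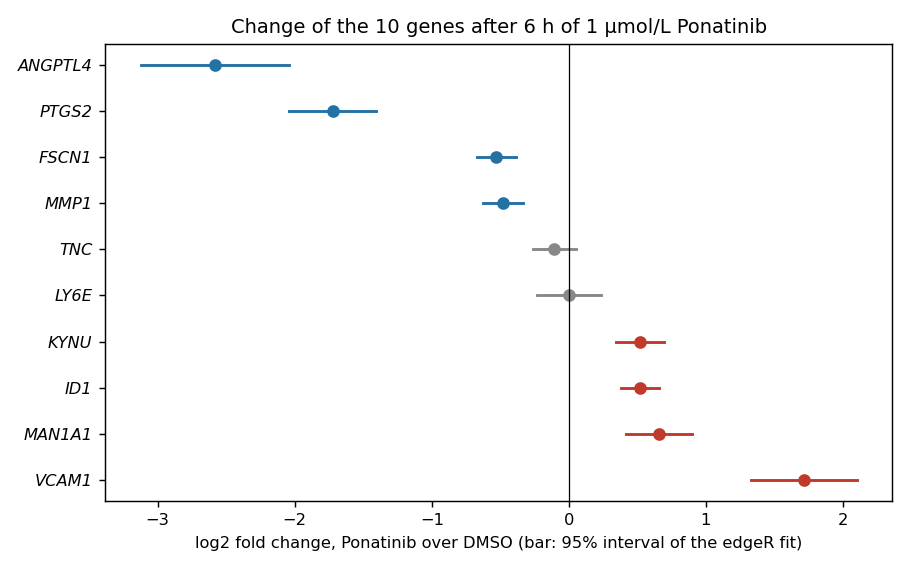
Log2 fold change of the 10 genes with Ponatinib over DMSO (x axis) with 95% intervals of the edgeR fit, blue where a gene fell, gray where it did not pass the test and red where it rose. The values run from -2.58 for ANGPTL4 to 1.71 for VCAM1, and the intervals of TNC and LY6E include 0.

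JUN, which encodes the AP-1 subunit c-Jun, was at 281 and 296 with DMSO and at 64.9 and 61.7 with Ponatinib (log2 fold change -2.18, edgeR adjusted p = 1.4e-11). In the shRNA set it was between 189.3 and 219.3 in the 4 libraries. ABL1 and ABL2 mRNA had log2 fold changes of 0.19 and -1.02 with Ponatinib (edgeR adjusted p = 0.029 and 8.6e-08).

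In the knockdown libraries, ID1 and VCAM1 were higher and MAN1A1 was lower than with scrambled shRNA. Each knockdown is 1 library and all 3 share the 1 scrambled library, so the values below are ratios of those libraries with 95% counting intervals, without a replicate check and without a test. Over 2-fold, ABL1 shRNA had 2 members higher (ID1 and VCAM1, against 4.94% of 16172 genes) and 0 lower (4.25%). ABL2 shRNA had 1 higher (ID1, 4.76%) and 1 lower (MAN1A1, 3.35%), and both shRNAs together had 1 higher (ID1, 4.77%) and 1 lower (MAN1A1, 3.46%). The members' median log2 ratio was 0.53, 0.38 and 0.53 in this order, with all genes at 0.0038, -0.0064 and 0.00031. Markers of other cells differed between these libraries as well. COL1A1 was at 406.8 with scrambled shRNA and at 99.2, 226.9 and 138.6 with the ABL1 hairpin, the ABL2 hairpin and both, and PECAM1 was at 20.5 and then 30.7, 39.7 and 32.4. DCN and CDH5 were at 0.352 or less in all 4 libraries, and the part of these markers in the ratios below was not tested.

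ID1 was at 44.2 with scrambled shRNA, 89.3 under the ABL1 hairpin, 118.5 under the ABL2 hairpin and 125.2 with both. The ratios to scrambled were 2.02 (1.82 to 2.25), 2.68 (2.42 to 2.97) and 2.84 (2.56 to 3.14). The first of these lies just past 2-fold and its interval includes it. The other ID genes stayed within 2-fold in all 3 knockdowns. ID2 was at 2.29, 2.70, 1.83 and 2.39 in the same order of libraries, ID3 at 24.6, 19.4, 16.6 and 28.4, and ID4 at 11.4, 8.26, 10.4 and 10.5. ATOH8, the gene of that list that rose most with Ponatinib, was lower in all 3 knockdowns, at 4.63, 3.34 and 6.51 against 17.5 with scrambled shRNA. ID1 and ATOH8 thus rose together with Ponatinib and stood on opposite sides of scrambled shRNA in the knockdowns.

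VCAM1 was at 29.7 with scrambled shRNA, 69.6 under the ABL1 hairpin, 51.2 under the ABL2 hairpin and 54.8 with both. The ratios were 2.35 (2.07 to 2.67), 1.73 (1.51 to 1.97) and 1.85 (1.62 to 2.11). ICAM1, at 158.5 with scrambled shRNA, was lower in all 3, at 111.6, 129.6 and 93.8, as it was with Ponatinib. MAN1A1 was at 49.5 with scrambled shRNA and at 25.4, 22.045 and 22.2 in the knockdowns, with ratios of 0.514 (0.447 to 0.590), 0.446 (0.385 to 0.516) and 0.450 (0.387 to 0.521). The value with ABL1 shRNA did not pass 2-fold, and its interval includes that limit. MAN1A1 was therefore lower in the knockdowns and higher with Ponatinib, the reverse pair of directions.

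KYNU was the gene on which the single knockdowns differed most. It was at 98.9 with scrambled shRNA, 141.9 under the ABL1 hairpin, 77.5 under the ABL2 hairpin and 104.6 with both. ABL1 shRNA over ABL2 shRNA was 1.83 (1.69 to 1.98), and the library with both lay between them. By value alone, the double knockdown lay between the single ones for VCAM1, MAN1A1, KYNU and LY6E, and outside them for the other 6 genes. No interval was computed for these orders, and some were near ties. LY6E was at 85.1 with both and 85.7 under the ABL1 hairpin, and ANGPTL4 at 32.5 and 32.2. FSCN1 was at 169 with scrambled shRNA and at 207.0, 203 and 224 in the knockdowns, with ratios from 1.20 to 1.32, whereas it fell with Ponatinib.

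Like KYNU and FSCN1, the other 5 genes stayed within 2-fold in all 3 knockdowns. ANGPTL4 was at 18.9 with scrambled shRNA and at 32.2, 26.9 and 32.5 in the knockdowns. TNC was at 102 and then 148, 155 and 161, and LY6E at 54.1 and then 85.7, 73.8 and 85.1, so that these 3 genes were higher in every knockdown. MMP1 was at 66.4 and then 71.7, 82.6 and 60.3, and PTGS2 at 79.2 and then 68.1, 85.3 and 52.5, on both sides of scrambled shRNA. The scrambled library was the lowest of the 4 for 6 of the 10 genes and the highest for 1, where it was the lowest for 29.7% of 16172 genes and the highest for 29.7%. With 1 scrambled library, a shift of that library and a shared change of the 3 knockdowns cannot be told apart.

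A fit of all 8 libraries, which assumes that shRNA libraries vary like the DMSO and Ponatinib pairs, called 8 of the 10 genes in each knockdown. These were 7 higher and 1 lower under the ABL1 hairpin, 6 and 2 under the ABL2 hairpin, and 6 and 2 with both. It called 22%, 15.6% and 17.8% of 18275 genes in the same order. With 1 library in each shRNA group, this reading takes its whole spread from the other set, from which the shRNA libraries stand apart, so it is neither a replicate check nor a test of a knockdown.

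**Figure D5:**
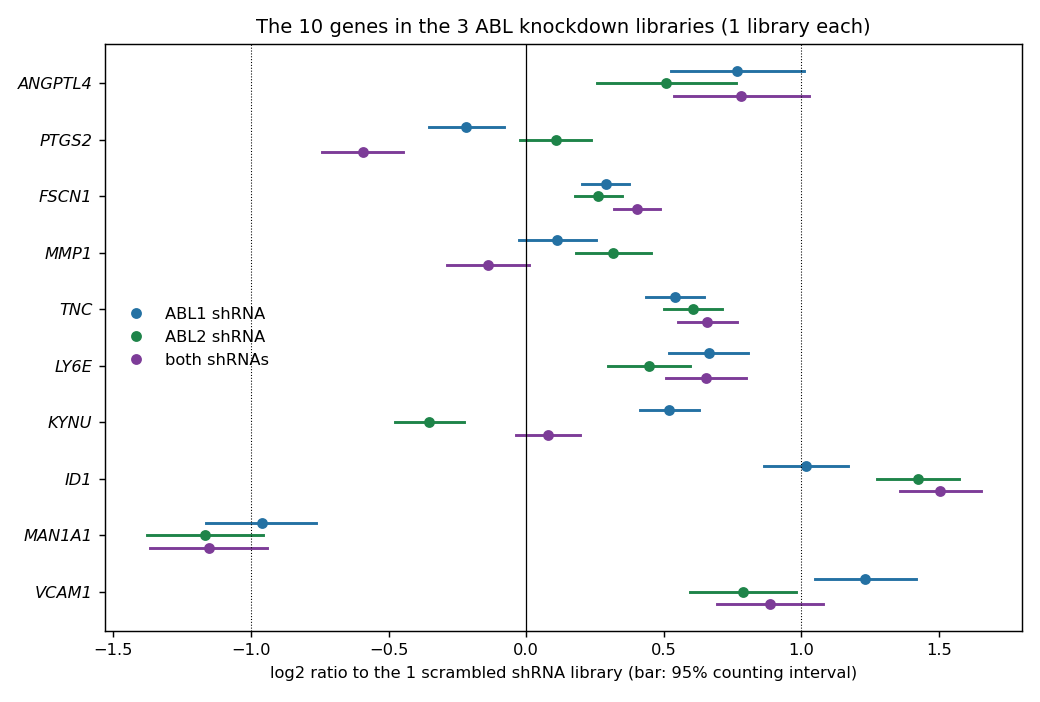
Log2 ratio of each knockdown library to the scrambled shRNA library (x axis) for the 10 genes, with bars for the 95% counting interval and dotted lines at 2-fold in either direction. ID1 lies at 1.02, 1.42 and 1.5034, MAN1A1 at -0.96, -1.17 and -1.15, and KYNU is spread from -0.35 to 0.52.

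Side by side, the log2 values with Ponatinib and with both shRNAs were 0.52 and 1.5034 for ID1, 1.71 and 0.88 for VCAM1 and -1.72 and -0.59 for PTGS2, each on 1 side of 0. They were on opposite sides for MAN1A1 (0.66 and -1.15), ANGPTL4 (-2.58 and 0.78) and FSCN1 (-0.53 and 0.40). For KYNU (0.52 and 0.080) and MMP1 (-0.48 and -0.14) the counting interval of the knockdown included no change. TNC (-0.11 and 0.66) and LY6E (-0.00095 and 0.65) did not pass the test with Ponatinib. The difference between the comparisons was not tested, since the knockdowns have no replicates. The library with both shRNAs was not the one with the least of either target. ABL1 was at 109.4 there against 72.9 under the ABL1 hairpin alone, and ABL2 at 147.8 against 93.7 under the ABL2 hairpin alone. The starting levels of the 2 sets differed as well. The scrambled library over the DMSO mean was 7.04 for VCAM1, 3.48 for PTGS2, 2.57 for MAN1A1, 0.434 for ID1 and 0.497 for MMP1. Virus, selection, library preparation and read counting cannot be told apart there.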

How the data were processed

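RNA from 8 samples of LM2 cells was sequenced. Per the labels and the study's methods, the authors mapped the reads to hg38 with Bowtie/TopHat, counted them with HTSeq 0.6.0 (submitters' processing notes) and deposited the raw read counts of each gene as 1 table for each sample. The annotation release and the strand setting are not given in the sources used here, and reads of overlapping antisense genes (MMP1, PTGS2, TNC, LY6E, MAN1A1 and KYNU have one, each with at most 14 counts) cannot be told apart. HTSeq leaves out reads that fit more than 1 gene. In the shRNA files, reads on no gene were 9.481% to 9.897% and ambiguous reads 6.121% to 6.323% of the counted total, and both were left out. The DMSO and Ponatinib files do not give these numbers.

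Counts were normalized by TMM. The quasi-likelihood test of edgeR 4.0.16 was run in R 4.3.3 (filterByExpr, prior count 0.125, Benjamini-Hochberg adjustment over all genes, threshold 0.05). Ponatinib was compared with DMSO in their 4 libraries. CPM were normalized separately in the 4 shRNA libraries, and their ratios carry exact conditional binomial 95% intervals, which cover counting error only. The labels do not say whether the replicates are separate cultures, so p-values measure the spread between these libraries. The replicates of a pair differed by more than sampling noise, with a chi-square over its degrees of freedom of 1.3978 for DMSO and 2.917 for Ponatinib. Positions are from GENCODE on hg38 and promoters from RefSeq.

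The members and lists were chosen with earlier results of these data known. Named genes are the 10 members, ABL1, ABL2, JUN, and from each list at most 4 genes with a fold change over 2 and an adjusted p under 0.05. Other genes were named after their values were seen. Alternatives were other size factors, filters and tests (DESeq2 1.42.0), a replicate block, another prior count and leaving out each DMSO or Ponatinib library.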

Additional observations from a re-analysis of the deposited data

How the results depend on the processing

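The number of members changed with Ponatinib was 8 under DESeq2's size factors, library size only, no filter, a filter of 10 counts in every library, DESeq2's Wald test, the fit of 8 libraries, the replicate block and an unadjusted p, and 8 to 9 with 1 library left out. The number past 2-fold was 3 in each of these and when 1 library was left out. Of 120 values of single members under these alternatives, 113 kept their direction and their side of the threshold. The others were of TNC and LY6E. TNC was at 0.0089395 without Ponatinib replicate 1 and at -0.2094 without Ponatinib replicate 2, so its value depends on the Ponatinib library. The second of these fits called TNC. With 1 Ponatinib library the spread comes from the DMSO pair alone, which varied less than the Ponatinib pair. Calls in these fits are therefore not comparable with the main ones. LY6E, at -0.00095, turned to 0.0015683 with DESeq2's size factors, 0.043595 with library size only, 0.001167 with the replicate block, and from -0.12668 to 0.12227 with 1 library left out (0.074291 without Ponatinib replicate 2), and passed in none. Genes of the partner lists changed numbered 54, 37 with DESeq2's Wald test and 38 to 62 with 1 library left out. Over all genes, 4917 had an adjusted p under 0.05. With all libraries kept, this number ran from 2809 with DESeq2's Wald test to 5073 with no filter. Fold and P were passed by 878 genes, and this number ran from 549 under the filter of 10 counts to 1234 with no filter. Same-numbered libraries did not deviate together (r = 0.02678 across 14715 genes), and the replicate block gave 4984 and 892 genes and changed no call of a member. In the knockdowns all 120 alternative values of single members kept their direction and side of 2-fold. These alternatives use the same libraries, and other size factors shifted the ratios of a knockdown together, by at most 0.04662 on the log2 scale. Little change was therefore possible, and this says nothing on how far a repeat would differ. A fold threshold of 1.5 in place of 2 gave 5 members under the ABL1 hairpin, 4 under the ABL2 hairpin and 7 with both, against 2 in each. The share of all genes past 1.5-fold was not counted, so these numbers show only that the count depends on the threshold. No replicate could be left out in the shRNA set, where each group is 1 library.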

Other observations

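The shRNA set held another level of several genes of the lung metastasis lists before any knockdown is considered. FN1, the matrix ligand of integrins, was at 401 and 410 normalized CPM with DMSO and at 4222 with scrambled shRNA, CXCL1 was at 10.6 and 9.42 and at 239.5, and MMP2, a gelatinase, was at 3.01 and 4.66 and at 97.1. Within the shRNA set, MMP2 was at 22.1, 25.4 and 22.2 and CXCL1 at 125.8, 80.0 and 67.0 with ABL1, ABL2 and both shRNAs, below scrambled shRNA in every knockdown. EREG, an EGF family ligand, was at 188.9 with scrambled shRNA and at 412.2, 199.4 and 283.0 in the knockdowns. PTGES, the prostaglandin E synthase, was at 146.0 with scrambled shRNA and at 417.9, 387.9 and 456.7, so that it was over 2-fold higher in all 3. These genes were chosen after their values were seen, and each knockdown value is 1 library.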
